A study of Mus musculus with 16 samples.

Results

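The ectoderm and the mesoderm of the mouse limb bud were compared at E10.5, in embryonic days, the stage at which the apical ectodermal ridge is a mature structure. The comparison rests on 4 of the 16 RNA-seq libraries of a series that spans E9.5 to E12.5: ectoderm replicates 1 and 2 (ECT105_R1 and ECT105_R2) and mesoderm replicates 1 and 2 (MES105_R1 and MES105_R2). They were chosen by these column names, and an ectoderm and a mesoderm library with the same number come from the same batch of embryos. All embryos were of the B6 strain, and the labels name no mutation or treatment for any group. The distal 150 µm of forelimb buds was cut, digested on ice in trypsin and pulled apart with forceps, so both layers went through the same dissociation. RNA of replicate 1 and of replicate 2 was prepared with different kits, so the kit goes with the replicate number and not with the layer. The labels do not say how many embryos made up a batch. The ridge was not separated from the dorsal and ventral ectoderm around it, and the mesoderm sample holds the vessels and blood of the bud tip. In such bulk samples, fewer cells of a type and less RNA per cell cannot be told apart.

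The apical ectodermal ridge is a thickened strip of ectoderm along the rim of the limb bud. It secretes fibroblast growth factors (FGFs), among them FGF8, FGF4, FGF9 and FGF17, that keep the underlying mesenchyme alive, dividing and patterned. The mesenchyme in turn secretes FGF10, which acts on the epithelial splice form of the receptor FGFR2 and maintains the ridge. WNT3 with beta-catenin and the factors SP6 and SP8 act upstream of Fgf8 in the ectoderm, WNT7A marks dorsal and EN1 ventral ectoderm, and LMX1B responds to WNT7A in the dorsal mesenchyme. Sonic hedgehog (SHH) comes from the posterior mesenchyme, and the bone morphogenetic protein (BMP) inhibitor GREM1 links it to the ridge.

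The 4 libraries held between 12035006 and 30438214 counted reads, within the range of 10005867 to 30438214 for the series. Of 53800 genes, 28342 had at least 1 read in the 16 libraries of the series and 15501 were tested. Levels are given as CPM (counts scaled to a common library size of 1000000) on library sizes scaled by TMM. Differences are log2 values of ectoderm over mesoderm from edgeR's quasi-likelihood test, with an approximate standard error (SE). The main test did not pair the libraries of a batch, and the fits with embryo batch as the block did. A gene is called where its p, adjusted by the Benjamini-Hochberg method over all tested genes, is under 0.05. By this test 4093 genes (26.4% of those tested) differed between the layers, 7531 (48.6%, of them 25.8% of tested genes higher and 22.8% lower) with embryo batch as the block and 2692 without mesoderm replicate 1. Of these, 2508 (16.2%) were higher and 1585 (10.2%) lower in the ectoderm. Over all tested genes the median log2 difference was 0.017, and in 58.7% of them the libraries of the 2 layers did not overlap. Called genes reached further on the ectodermal side: 538 lay above a log2 difference of 5, against 134 below -5.

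Markers of surface epithelium, vessels and blood were largely separate between the layers, and transcription factors of limb mesenchyme less so. In each batch, the median surface epithelium gene stood in the mesoderm at 1.38% and 0.830% of its ectodermal level. The median endothelial gene stood in the ectoderm at 1.13% and 3.87% of its mesodermal level, and the median erythroid gene at 1.63% and 5.05%. The 28 listed transcription factors of limb mesenchyme went both ways, 17 called lower and 8 higher in the ectoderm, and their median there was 26.1% and 16.3% of the mesodermal level. The part that RNA carried over between the layers plays in the levels of the lower layer was not tested.

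**Figure D1:**
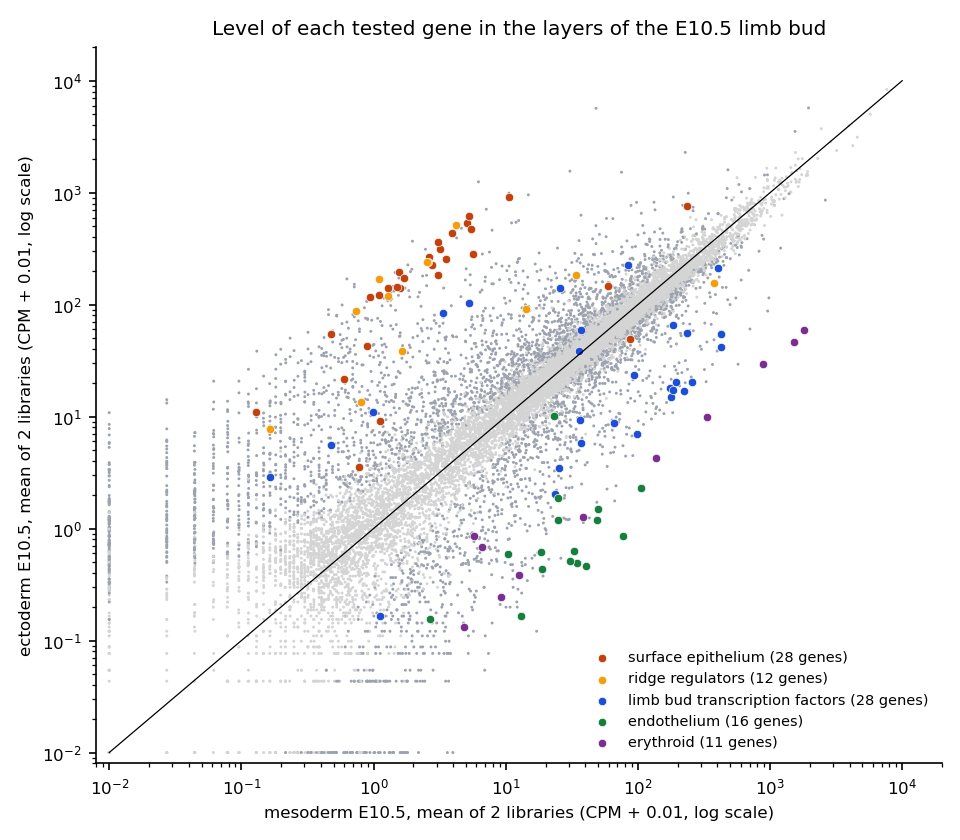
Mean level of each gene in the mesoderm (x axis, CPM + 0.01) and the ectoderm (y axis, CPM + 0.01) at E10.5, both on log scales, 2 libraries per layer. Light grey points are the 15501 tested genes, darker points the 4093 called ones, colours mark 5 gene lists and the line marks equal levels; surface epithelium and ridge regulators lie above the line apart from Tfap2c and Msx1, endothelial and erythroid genes below it, and the limb bud transcription factors on both sides.

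Genes of the surface epithelium were higher in the ectoderm with 1 exception. Of 28 listed genes, 27 were called higher and none lower, and the median log2 difference was 6.43 beside 0.017 for all tested genes. Trp63, the p53 relative that specifies stratified epithelium, was at 532 and 530.2 CPM in the ectoderm and 6.59 and 3.55 CPM in the mesoderm (log2 difference 6.68, SE 0.36, adjusted p = 5.8e-07). The splicing factors Esrp1 and Esrp2, which impose the epithelial form of many transcripts, stood at 255 and 273 CPM and 139.9 and 141 CPM in the ectoderm and below 4 CPM in every mesoderm library. Krt5, a basal keratin, was at 1062 and 779 CPM in the ectoderm and 14.9 and 6.14 CPM in the mesoderm (log2 difference 6.43, SE 1.01, adjusted p = 6.2e-04). The simple-epithelium keratins Krt8 and Krt18 were also abundant in the ectoderm, at 322 and 193 CPM and 274 and 180.2 CPM. In the mesoderm Krt8 was at 5.62 and 1.36 CPM and Krt18 at 3.97 and 1.57 CPM.

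Of the adhesion genes, E-cadherin (Cdh1) was at 703 and 542 CPM in the ectoderm and 8.42 and 2.18 CPM in the mesoderm (log2 difference 6.83, SE 0.62, adjusted p = 1.3e-05). P-cadherin (Cdh3) was at 828 and 688 CPM in the ectoderm and 256 and 214 CPM in the mesoderm (log2 difference 1.69, SE 0.27, adjusted p = 7.8e-04), so it was called higher in the ectoderm but had a sizeable mesodermal level. The transcription factor Tfap2a likewise had both: it was at 143 and 149.7 CPM in the ectoderm and 54.8 and 64.3 CPM in the mesoderm (log2 difference 1.30, SE 0.33, adjusted p = 0.012), and this call was lost without a library (adjusted p = 0.052 without ectoderm replicate 2, and 0.091 without mesoderm replicate 1). The exception was its relative Tfap2c, at 49.8 and 48.2 CPM in the ectoderm and 92.9 and 82.1 CPM in the mesoderm, the only gene of the list with the higher values in the mesoderm. It was not called (log2 difference -0.84, SE 0.35, adjusted p = 0.11), and was called lower with embryo batch as the block (adjusted p = 0.017) and without mesoderm replicate 1 or 2 of E12.5 (adjusted p = 0.032 each).

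Of 12 transcription factors listed as regulators of the ridge and ectoderm, 11 were called higher in the ectoderm and 1 lower, with a median log2 difference of 5.94. Sp6 was at 555 and 465 CPM in the ectoderm and 5.21 and 3.21 CPM in the mesoderm (log2 difference 6.89, SE 0.51, adjusted p = 3.0e-06), and Sp8 at 240.0 and 239.6 CPM in the ectoderm and 3.73 and 1.43 CPM in the mesoderm (log2 difference 6.47, SE 0.49, adjusted p = 3.7e-06). Their relative Sp9 was at 14.8 and 11.9 CPM in the ectoderm and 0.552 and 1.02 CPM in the mesoderm, again without overlap. All 6 Dlx homeobox genes were called higher. They lie in the genome as the neighbouring pairs Dlx1 and Dlx2 on chromosome 2, Dlx3 and Dlx4 on chromosome 11 and Dlx5 and Dlx6 on chromosome 6, and Dlx5 was at 91.7 and 89.7 CPM in the ectoderm and 12.8 and 15.6 CPM in the mesoderm (log2 difference 2.67, SE 0.22, adjusted p = 5.4e-06). En1, the ventral ectoderm factor, was at 87.1 and 89.2 CPM in the ectoderm and 0.828 and 0.614 CPM in the mesoderm (log2 difference 6.88, SE 0.55, adjusted p = 5.3e-06).

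The 2 Msx genes, targets of BMP signalling, went opposite ways. Msx2 was at 199.9 and 165 CPM in the ectoderm and 43.4 and 25.2 CPM in the mesoderm (log2 difference 2.41, SE 0.42, adjusted p = 0.0013). Msx1 was at 156 and 158 CPM in the ectoderm and 427 and 323 CPM in the mesoderm (log2 difference -1.26, SE 0.40, adjusted p = 0.036), the only listed regulator called lower in the ectoderm. Both had over 20 CPM in every library of both layers. The Msx1 call did not hold in all fits that left out a library (adjusted p = 0.14 and 0.14 without ectoderm replicates 1 and 2, and 0.18 and 0.058 without mesoderm replicates 1 and 2, and up to 0.053 without 1 of 2 libraries of other stages).

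FGF ligands divided by layer. Of 22 genes of the family, 14 passed the filter on low counts. Of these 9 were called higher in the ectoderm, 2 lower and 3 not, beside 16.2% higher and 10.2% lower of all tested genes. Fgf8, the main ridge FGF (mm10 chr19:45736798-45742915), was at 1597 and 903 CPM in the ectoderm and 9.07 and 3.34 CPM in the mesoderm (log2 difference 7.62, SE 0.73, adjusted p = 1.8e-05). The mesoderm of each batch held 0.568% and 0.370% of the ectodermal level. Fgf4, known from the posterior part of the ridge, was at 243 and 96.05 CPM in the ectoderm and 0.828 and 0.409 CPM in the mesoderm (log2 difference 7.997, SE 1.32, adjusted p = 0.0013). Fgf9 was at 39.02 and 58.7 CPM in the ectoderm and 0.276 and 0.887 CPM in the mesoderm (log2 difference 6.52, SE 1.003, adjusted p = 5.5e-04), and Fgf17 at 31.9 and 24.5 CPM in the ectoderm and 0.656 and 0.205 CPM in the mesoderm (log2 difference 5.90, SE 0.67, adjusted p = 9.9e-05). For none of these 4 did the layers overlap, as in 58.7% of all tested genes. The ectoderm replicates of Fgf4 differed from each other more than those of the other 3. On the per-length scale of the deposited FPKM values (fragments scaled to transcript length and library size), Fgf8 stood at 1179.7 and 769.6 in the ectoderm, Fgf4 at 62.7 and 26.3, Fgf9 at 15.01 and 21.7 and Fgf17 at 14.8 and 12.2. Fgf8 was thus the highest of the 4 in both ectoderm libraries, and Fgf4 the next.

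Other ligands were also found on the ectodermal side. Fgf15 was at 59.5 and 7.94 CPM in the ectoderm and 0.621 and 0.546 CPM in the mesoderm (log2 difference 5.82, SE 1.10, adjusted p = 0.0022), so its ectoderm replicates were far apart but both above the mesoderm. Fgf3 had 327 reads in the ectoderm and 1 in the mesoderm, at 18.5 and 7.88 CPM in the ectoderm and 0.0345 and 0 CPM in the mesoderm, a ratio of 544 (counting interval 96.9 to 21533) with an adjusted p of 3.4e-04. Fgf3, Fgf4 and Fgf15 are neighbours on chromosome 7, between positions 144838083 and 144900953 of mm10, and all were called higher in the ectoderm. Fgf1 was at 7.72 and 12.1 CPM in the ectoderm and 0.276 and 0.477 CPM in the mesoderm (log2 difference 4.75, SE 0.66, adjusted p = 2.7e-04), and Fgf11 was at 4.70 and 6.41 CPM in the ectoderm and 0.414 and 0.477 CPM in the mesoderm (log2 difference 3.64, SE 0.39, adjusted p = 4.1e-05). Fgf5 reached only 3.28 and 1.60 CPM in the ectoderm, and its call was lost without a library (adjusted p = 0.057 without mesoderm replicate 1).

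Fgf10, the ligand that the mesenchyme sends to the ridge, was at 4.52 and 5.07 CPM in the ectoderm and 61.0 and 69.98 CPM in the mesoderm (log2 difference -3.77, SE 0.73, adjusted p = 0.0025). Its ectodermal level was 7.42% and 7.25% of the mesodermal one in the same batch. Fgf2 was the other ligand lower in the ectoderm, at 0.976 and 1.60 CPM in the ectoderm and 8.38 and 14.8 CPM in the mesoderm (log2 difference -3.14, SE 0.72, adjusted p = 0.007). That call was lost without a library (adjusted p = 0.065 without ectoderm replicate 1). Fgf12, Fgf13 and Fgf18 were not called, and Fgf13 (adjusted p = 0.032) and Fgf18 (adjusted p = 0.048) were called lower with embryo batch as the block.

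**Figure D2:**
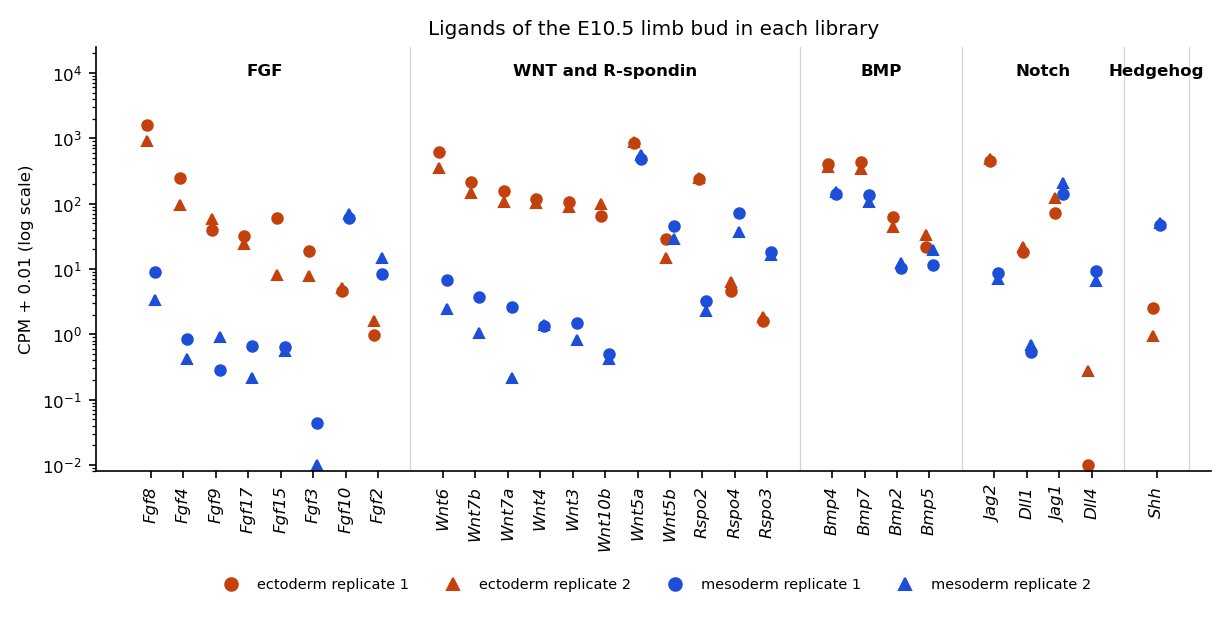
Level of signalling ligands in each library at E10.5 (CPM + 0.01, log axis), grouped as FGF, WNT and R-spondin, BMP, Notch and Hedgehog. Orange is ectoderm and blue mesoderm, circles are replicate 1 and triangles replicate 2; Fgf8, Wnt6 and Rspo2 show the orange points far above the blue ones, and Fgf10, Shh and Rspo4 the reverse.

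The receptors divided as well. Fgfr2 was at 275 and 314 CPM in the ectoderm and 7.35 and 7.71 CPM in the mesoderm (log2 difference 5.29, SE 0.37, adjusted p = 2.3e-06), without overlap. Fgfr1, the main receptor of the mesenchyme, was at 90.3 and 115 CPM in the ectoderm and 333 and 308 CPM in the mesoderm (log2 difference -1.64, SE 0.20, adjusted p = 9.4e-05), so it was lower in the ectoderm yet had over 90 CPM there. Fgfr3 was at 8.43 and 20.4 CPM in the ectoderm and 2.93 and 5.39 CPM in the mesoderm (log2 difference 1.82, SE 0.56, adjusted p = 0.034), and that call was lost in some fits (adjusted p = 0.31 without ectoderm replicate 2, and 0.22 and 0.053 without mesoderm replicates 1 and 2). Fgfr4 was below 1 CPM in every library. The decoy receptor Fgfrl1 was at 30.4 and 33.9 CPM in the ectoderm and 42.3 and 41.2 CPM in the mesoderm, not called (adjusted p = 0.085) but called lower with the block (adjusted p = 0.031).

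FGFR1 and FGFR2 are each made in a IIIb and a IIIc form, which differ in 1 exon that codes for the last part of the third immunoglobulin-like domain and sets which FGFs bind.

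The Fgfr2 IIIb exon held 172 and 183 reads in the ectoderm and 0 and 1 in the mesoderm. As a share of all exon reads of the gene, these were 3.69% and 2.65% in the ectoderm and 0% and 0.585% in the mesoderm. The IIIc exon held 5 and 24 reads in the ectoderm and 7 and 4 in the mesoderm, or 0.107% and 0.348% and 2.22% and 2.34%. The shares of both exons thus did not overlap between the layers and lay in opposite order. The test of exon use did not call the gene (Simes adjusted p = 0.14, bins at 0.14 for IIIb and 0.054 for IIIc), and the whole gene had only 315 and 171 exon reads in the mesoderm libraries. No coding transcript of Fgfr2 holds both exons.

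In Fgfr1, which was read in both layers, the IIIb exon held 24 and 52 reads in the ectoderm and 0 and 10 in the mesoderm. Its share of the gene's exon reads was 1.53% and 2.01% in the ectoderm and 0% and 0.142% in the mesoderm, without overlap. The difference in use was called (log2 3.49, adjusted p = 2.1e-10 by edgeR's exon use test). Most Fgfr1 reads of this exon came from the layer in which the gene as a whole was lower.

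Genes that FGF signalling induces, include many of its feedback inhibitors. Of 9 such genes, 2 were called lower in the ectoderm and none higher, beside 10.2% lower and 16.2% higher of all tested genes. Dusp6, a phosphatase that inactivates ERK, was at 163 and 169 CPM in the ectoderm and 608 and 601 CPM in the mesoderm (log2 difference -1.87, SE 0.28, adjusted p = 4.8e-04). Il17rd (Sef), a membrane inhibitor of FGF receptors, was at 98.00 and 123 CPM in the ectoderm and 489.6 and 467 CPM in the mesoderm (log2 difference -2.11, SE 0.20, adjusted p = 1.7e-05). Spry2 was at 80.9 and 81.7 CPM in the ectoderm and 65.2 and 75.2 CPM in the mesoderm, close in the layers and not called (adjusted p = 0.41). The ETS factors Etv4 and Etv5 stood at 177 and 186 CPM and 181 and 167 CPM in the ectoderm and at 196 and 146 CPM and 225 and 204 CPM in the mesoderm, and neither was called. With the block, Spry1 was called higher (adjusted p = 0.0039, and 0.035 without mesoderm replicate 1 or 2 of E12.5), and Spry4 (0.011) and Etv5 (0.045) lower. Over all 28 tested FGF genes the block raised the number called lower from 5 to 10, and over all tested genes from 10.2% to 22.8%.

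Of 19 WNT ligands 16 were tested, and 14 of them were called higher in the ectoderm and none lower, with a median log2 difference of 6.10. Wnt3, the ligand needed to form the ridge, was at 105 and 90.4 CPM in the ectoderm and 1.48 and 0.819 CPM in the mesoderm (log2 difference 6.34, SE 0.42, adjusted p = 1.9e-06). Wnt6 was at 609 and 354 CPM in the ectoderm and 6.76 and 2.46 CPM in the mesoderm (log2 difference 6.66, SE 0.81, adjusted p = 1.0e-04), and Wnt10b at 64.3 and 98.6 CPM in the ectoderm and 0.483 and 0.409 CPM in the mesoderm (log2 difference 7.47, SE 0.60, adjusted p = 5.4e-06). Wnt7a, the dorsal signal, was at 157 and 107 CPM in the ectoderm and 2.62 and 0.205 CPM in the mesoderm (log2 difference 6.38, SE 0.74, adjusted p = 6.9e-05). For each of these 4 the mesoderm stayed below 7 CPM, and the layers did not overlap, as in 58.7% of all tested genes. Wnt4 and Wnt7b also exceeded 100 CPM in both ectoderm libraries, with log2 differences of 6.36 and 6.18. The neighbouring pairs Wnt6 and Wnt10a on chromosome 1 and Wnt3 and Wnt9b on chromosome 11 were called higher as pairs.

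Wnt5a, a ligand of the beta-catenin independent branch that guides limb outgrowth, had reads in both layers. It was at 851 and 866 CPM in the ectoderm and 478 and 550.1 CPM in the mesoderm (log2 difference 0.74, SE 0.18, adjusted p = 0.0096), and the call was lost without a library (adjusted p = 0.087 without mesoderm replicate 1). Per length, Wnt6 stood at 227 and 139.5 FPKM in the ectoderm and Wnt5a at 143 and 154 FPKM there and 81.4 and 102 FPKM in the mesoderm. Wnt2 and Wnt3a had no read in the mesoderm and under 2 CPM in the ectoderm. They were at least 11.1-fold and 6.65-fold higher against a floor of 3 reads over the group, and both calls were lost in leave-out fits (Wnt2 adjusted p = 0.17 without ectoderm replicate 2, and 0.13 and 0.065 without mesoderm replicates 1 and 2; Wnt3a adjusted p = 0.065 without ectoderm replicate 1, and 0.088 without mesoderm replicate 1). Wnt5b was at 28.6 and 14.8 CPM in the ectoderm and 45.2 and 28.8 CPM in the mesoderm, not called but called lower with the block (adjusted p = 9.4e-04).

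The R-spondins, which boost WNT signalling by removing the ligases ZNRF3 and RNF43 from the cell surface, were shared out between the layers. Rspo2, which is needed for ridge FGF production and limb growth, was at 236 and 244 CPM in the ectoderm and 3.17 and 2.25 CPM in the mesoderm (log2 difference 6.44, SE 0.42, adjusted p = 1.7e-06). Rspo4 was at 4.52 and 6.21 CPM in the ectoderm and 71.9 and 36.3 CPM in the mesoderm (log2 difference -3.33, SE 0.76, adjusted p = 0.0067), and Rspo3 at 1.60 and 1.80 CPM in the ectoderm and 17.9 and 16.3 CPM in the mesoderm (log2 difference -3.32, SE 0.77, adjusted p = 0.0073). Both of the latter were thus lower in the ectoderm, in calls that were lost in leave-out fits (Rspo4 adjusted p = 0.063 without ectoderm replicate 1; Rspo3 adjusted p = 0.059 and 0.054 without ectoderm replicates 1 and 2). Their targets Rnf43 and Znrf3 were on the ectodermal side. Rnf43 was at 51.8 and 63.1 CPM in the ectoderm and 0.932 and 0.614 CPM in the mesoderm (log2 difference 6.16, SE 0.36, adjusted p = 9.0e-07), and Znrf3 at 127 and 160.3 CPM in the ectoderm and 19.1 and 25.1 CPM in the mesoderm (log2 difference 2.70, SE 0.41, adjusted p = 5.1e-04). Of the R-spondin receptors, Lgr6 was at 87.5 and 68.1 CPM in the ectoderm and 1.07 and 0.341 CPM in the mesoderm (log2 difference 6.65, SE 0.47, adjusted p = 2.4e-06), whereas Lgr5 stayed below 3 CPM in all libraries.

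Of 18 WNT receptors and co-receptors, 7 were called higher, 1 lower and 10 not, beside 16.2% higher and 10.2% lower of all tested genes. With the block 9 were called higher and 3 lower, beside 25.8% and 22.8% of all tested genes. Fzd6, a planar polarity receptor of the skin, was at 109.9 and 124 CPM in the ectoderm and 1.55 and 2.18 CPM in the mesoderm (log2 difference 5.99, SE 0.27, adjusted p = 4.0e-07). Fzd1 was at 644 and 529 CPM in the ectoderm and 72.9 and 56.5 CPM in the mesoderm (log2 difference 3.18, SE 0.29, adjusted p = 1.3e-05). Fzd4 was the member on the mesodermal side, at 4.26 and 5.54 CPM in the ectoderm and 24.8 and 44.5 CPM in the mesoderm (log2 difference -2.81, SE 0.48, adjusted p = 0.0011). The co-receptors Lrp5 and Lrp6 were not called, and Lrp5 was called higher with the block (adjusted p = 0.0029). The tyrosine kinase-like receptors Ror1 and Ror2, which bind WNT5A, were not both called. Ror1 was at 58.00 and 43.6 CPM in the ectoderm and 2.73 and 1.23 CPM in the mesoderm (log2 difference 4.63, SE 0.47, adjusted p = 2.8e-05), while Ror2 was at 144 and 95.7 CPM in the ectoderm and 155 and 84.9 CPM in the mesoderm and was not called (adjusted p = 1). Their values overlapped between the layers for Ror2 only.

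WNT antagonists were mostly on the ectodermal side: 9 of 14 tested genes were called higher, 2 lower and 3 not. Over all tested genes 16.2% were called higher and 10.2% lower. Kremen1 and Kremen2, which act with DKK1 on LRP6, stood at 501 and 515 CPM and 170.2 and 121 CPM in the ectoderm and at 44.6 and 51.6 CPM and 1.83 and 0.955 CPM in the mesoderm. Notum, an enzyme that inactivates WNT proteins, was at 172 and 144 CPM in the ectoderm and 11.52 and 10.4 CPM in the mesoderm (log2 difference 3.85, SE 0.31, adjusted p = 5.1e-06). Dkk1 was at 28.1 and 36.1 CPM in the ectoderm and 13.4 and 9.004 CPM in the mesoderm (log2 difference 1.51, SE 0.41, adjusted p = 0.017), a call that was lost in leave-out fits (adjusted p = 0.095 without ectoderm replicate 2, and 0.12 without mesoderm replicate 2). The secreted antagonist Frzb was at 50.5 and 55.1 CPM in the ectoderm and 226 and 199 CPM in the mesoderm (log2 difference -2.01, SE 0.55, adjusted p = 0.018), on the mesodermal side, and that call was also lost in such fits (adjusted p = 0.1 and 0.088 without ectoderm replicates 1 and 2, and 0.072 without mesoderm replicate 1). Among genes that beta-catenin induces, Axin2 was at 218 and 212 CPM in the ectoderm and 111 and 119 CPM in the mesoderm, without overlap. It was not called (log2 difference 0.90, SE 0.36, adjusted p = 0.088) and was called higher with the block (adjusted p = 4.5e-05). Nkd2 was at 16.3 and 23.8 CPM in the ectoderm and 119 and 141 CPM in the mesoderm (log2 difference -2.69, SE 0.52, adjusted p = 0.0026), in the opposite direction. Over all 58 tested WNT genes 7 were called lower, and 4 without ectoderm replicate 1 or 2.

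Of 8 tested BMP ligands 4 were called higher in the ectoderm, 2 lower and 2 not, beside 16.2% higher and 10.2% lower of all tested genes. Bmp2 was at 62.3 and 43.4 CPM in the ectoderm and 10.4 and 12.6 CPM in the mesoderm (log2 difference 2.20, SE 0.33, adjusted p = 4.5e-04), Bmp4 at 401 and 363 CPM in the ectoderm and 141 and 153 CPM in the mesoderm (log2 difference 1.38, SE 0.25, adjusted p = 0.0017) and Bmp7 at 436 and 334 CPM in the ectoderm and 138 and 107 CPM in the mesoderm (log2 difference 1.66, SE 0.17, adjusted p = 3.4e-05). Unlike the ridge FGFs, all 3 had over 10 CPM in both mesoderm libraries. The layers did not overlap for any of the 3, as in 58.7% of all tested genes. Bmp5 was at 21.6 and 33.7 CPM in the ectoderm and 11.7 and 19.6 CPM in the mesoderm, not called but called higher with the block (adjusted p = 0.011). Of 6 receptors only Acvr1 was called (log2 difference 0.48), and its call was lost in leave-out fits (adjusted p = 0.089 and 0.09 without ectoderm replicates 1 and 2, and 0.089 and 0.11 without mesoderm replicates 1 and 2). Bmpr1a was called higher with the block only (adjusted p = 8.9e-04).

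The antagonist Grem1 was at 19.4 and 9.61 CPM in the ectoderm and 62.4 and 52.9 CPM in the mesoderm. It was lower in both ectoderm libraries but was not called (log2 difference -1.99, SE 0.81, adjusted p = 0.096), and it was called lower with the block (adjusted p = 8.5e-06) and without ectoderm replicate 1 or 2 of E11.5 (adjusted p = 0.043 and 0.047). Sostdc1, a secreted antagonist of BMP and WNT, was at 17.2 and 19.4 CPM in the ectoderm and 0.897 and 0.477 CPM in the mesoderm (log2 difference 4.66, SE 0.95, adjusted p = 0.0036). Twsg1 was at 247 and 232 CPM in the ectoderm and 122 and 145 CPM in the mesoderm (log2 difference 0.84, SE 0.12, adjusted p = 4.2e-04). Noggin (Nog) stayed below 1 CPM in all 4 libraries. Of 7 genes that BMP signalling induces, 4 were called higher and none lower, beside 16.2% and 10.2% of all tested genes. With the block 5 were called higher and 1 lower, beside 25.8% and 22.8% of all tested genes. Bambi, a pseudoreceptor that dampens BMP signals, was at 411 and 399 CPM in the ectoderm and 56.96 and 57.98 CPM in the mesoderm (log2 difference 2.82, SE 0.20, adjusted p = 2.4e-06), and Smad6 was at 39.6 and 35.6 CPM in the ectoderm and 19.9 and 16.8 CPM in the mesoderm (log2 difference 1.03, SE 0.21, adjusted p = 0.004). Id1 was at 86.6 and 72.02 CPM in the ectoderm and 90.7 and 71.8 CPM in the mesoderm, near equal and not called (adjusted p = 0.97). Over all 29 tested BMP genes 3 were called lower, 5 with the block and 1 without mesoderm replicate 1, ectoderm replicate 1 or ectoderm replicate 2.

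In the hedgehog pathway 3 of 12 tested genes were called lower in the ectoderm, none higher and 9 not. Over all tested genes 10.2% were called lower and 16.2% higher. With the block 4 of the 12 were called lower and 2 higher, beside 22.8% and 25.8% of all tested genes. Shh was at 2.48 and 0.934 CPM in the ectoderm and 47.3 and 50.5 CPM in the mesoderm (log2 difference -4.86, SE 0.92, adjusted p = 0.0029). Gli3, whose repressor form limits digit number, was at 115 and 140.2 CPM in the ectoderm and 359 and 338 CPM in the mesoderm (log2 difference -1.45, SE 0.26, adjusted p = 0.0015), and the co-receptor Boc at 5.68 and 9.08 CPM in the ectoderm and 62.97 and 48.8 CPM in the mesoderm (log2 difference -2.91, SE 0.34, adjusted p = 7.5e-05). The receptor Ptch1, itself a target of the pathway, was at 248 and 312 CPM in the ectoderm and 151 and 188 CPM in the mesoderm, higher in both ectoderm libraries than in either mesoderm library. It was not called (log2 difference 0.72, SE 0.49, adjusted p = 0.34) and was called higher with the block (adjusted p = 7.7e-04). Gli1, another target, was at 28.4 and 58.3 CPM in the ectoderm and 45.5 and 85.1 CPM in the mesoderm, with overlap and no call (adjusted p = 0.42).

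Of 17 tested Notch genes 6 were called higher, 5 lower and 6 not, beside 16.2% higher and 10.2% lower of all tested genes. With the block 8 were called higher and 7 lower, beside 25.8% and 22.8% of all tested genes. Jag2, the ligand through which the ridge restrains its own extent, was at 446 and 479 CPM in the ectoderm and 8.80 and 6.96 CPM in the mesoderm (log2 difference 5.87, SE 0.24, adjusted p = 3.6e-07). The receptor Notch1 was at 253 and 305 CPM in the ectoderm and 43.2 and 31.6 CPM in the mesoderm (log2 difference 2.90, SE 0.29, adjusted p = 2.8e-05). Heyl was at 43.5 and 56.8 CPM in the ectoderm and 0.621 and 0.614 CPM in the mesoderm (log2 difference 6.33, SE 0.56, adjusted p = 1.0e-05), and its relative Hey1 was at 17.6 and 18.8 CPM in the ectoderm and 164 and 175 CPM in the mesoderm (log2 difference -3.22, SE 0.41, adjusted p = 1.5e-04), so these relatives lay on opposite sides. Dll4 and Notch4, known from endothelium, were on the mesodermal side with log2 differences of -5.67 and -3.99. All 16 listed endothelial markers were lower in the ectoderm too, and their part in these 2 differences was not tested.

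Of 17 tested retinoic acid genes 4 were called higher, 3 lower and 10 not, beside 16.2% higher and 10.2% lower of all tested genes. The number called lower was 1 without mesoderm replicate 1, 0 without ectoderm replicate 2 and 5 with the block. The enzymes that degrade retinoic acid differed in layer: Cyp26a1 was at 36.6 and 44.7 CPM in the ectoderm and 0.518 and 0.273 CPM in the mesoderm (log2 difference 6.57, SE 0.51, adjusted p = 4.3e-06). Cyp26b1 was at 428 and 342 CPM in the ectoderm and 958 and 830.1 CPM in the mesoderm (log2 difference -1.22, SE 0.27, adjusted p = 0.006), and its call was lost without a library (adjusted p = 0.062 without ectoderm replicate 2). Cyp26c1 was at 3.99 and 5.27 CPM in the ectoderm and 0.104 and 0 CPM in the mesoderm, also on the ectodermal side. Rdh10, which makes retinaldehyde, was at 28.9 and 28.3 CPM in the ectoderm and 4.45 and 7.71 CPM in the mesoderm (log2 difference 2.25, SE 0.40, adjusted p = 0.0014). Aldh1a2, which makes retinoic acid itself, had no read in the ectoderm and 0.138 and 1.43 CPM in the mesoderm and was not called.

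Of 28 transcription factors of the limb bud, 17 were called lower in the ectoderm, 8 higher and 3 not, with a median log2 difference of -2.39. Over all tested genes 10.2% were called lower and 16.2% higher. Prrx1, a marker of limb mesenchyme, was at 63.1 and 46.99 CPM in the ectoderm and 410.3 and 433 CPM in the mesoderm (log2 difference -2.94, SE 0.44, adjusted p = 4.6e-04). Tbx5, the forelimb factor that acts upstream of Fgf10, was at 15.6 and 14.3 CPM in the ectoderm and 195 and 162 CPM in the mesoderm (log2 difference -3.57, SE 0.54, adjusted p = 4.9e-04), and Tbx15 at 17.1 and 16.8 CPM in the ectoderm and 205 and 240.2 CPM in the mesoderm (log2 difference -3.71, SE 0.72, adjusted p = 0.0026). Lmx1b, the dorsal mesenchyme factor, was at 62.9 and 49.7 CPM in the ectoderm and 236 and 237 CPM in the mesoderm (log2 difference -2.07, SE 0.42, adjusted p = 0.0034), and Hand2, which acts upstream of Shh, at 23.9 and 10.7 CPM in the ectoderm and 210.2 and 158 CPM in the mesoderm (log2 difference -3.41, SE 0.63, adjusted p = 0.0019). None of these overlapped between the layers, which was so for 58.7% of all tested genes. Lhx9 and Lhx2, which relay FGF signals in the distal mesenchyme, were at 395 and 454 CPM and 279 and 237 CPM in the mesoderm and at 27.3 and 55.8 CPM and 17.9 and 22.4 CPM in the ectoderm. Both calls were lost in leave-out fits (Lhx9 adjusted p = 0.063 without ectoderm replicate 1; Lhx2 adjusted p = 0.097 and 0.08 without ectoderm replicates 1 and 2). Without ectoderm replicate 2, the number called lower fell from 17 to 10.

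The factors on the ectodermal side included Tbx3, Meis1, Meis2, Meis3, Irx3, Irx5 and Snai2. Meis1 and Meis2, which mark the proximal limb mesenchyme that the distal strip leaves out, were read mainly in the ectoderm. Meis1 was at 70.5 and 96.4 CPM in the ectoderm and 2.93 and 3.75 CPM in the mesoderm (log2 difference 4.65, SE 0.44, adjusted p = 1.7e-05), and Meis2 at 114 and 93.8 CPM in the ectoderm and 4.35 and 6.14 CPM in the mesoderm (log2 difference 4.32, SE 0.21, adjusted p = 4.0e-07). Tbx3 was at 130.4 and 152 CPM in the ectoderm and 27.7 and 23.3 CPM in the mesoderm (log2 difference 2.47, SE 0.35, adjusted p = 3.4e-04), while its close relative Tbx2 was at 9.14 and 2.40 CPM in the ectoderm and 35.7 and 37.9 CPM in the mesoderm (log2 difference -2.70, SE 0.89, adjusted p = 0.043), in a call that was lost in most leave-out fits (adjusted p = 0.25 without ectoderm replicate 2, and 0.1 and 0.1 without mesoderm replicates 1 and 2, and up to 0.058 without 1 of 10 libraries of other stages). Snai1 and Snai2, factors of mesenchymal transition, also went apart: Snai1 was at 6.30 and 7.81 CPM in the ectoderm and 117 and 80.4 CPM in the mesoderm (log2 difference -3.80, SE 0.76, adjusted p = 0.0033). Snai2 was at 60.1 and 57.6 CPM in the ectoderm and 33.9 and 39.8 CPM in the mesoderm (log2 difference 0.68, SE 0.21, adjusted p = 0.033), with a call lost in leave-out fits (adjusted p = 0.13 and 0.097 without ectoderm replicates 1 and 2, and 0.2 and 0.07 without mesoderm replicates 1 and 2, and 0.064 without ectoderm replicate 1 of E11.5).

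Hox genes pattern the limb along its axes, with the 5′ members of the A and D clusters acting distally. Of the tested genes, 8 of 11 in HoxA were called lower in the ectoderm, 1 higher and 2 not, and 6 of 9 in HoxD were called lower and none higher. In HoxC 9 of 9 were called higher, and in HoxB 4 of 9 were called higher and none lower (2 higher without ectoderm replicate 2). With the block, 10 HoxA and 8 HoxD genes were called lower. Over all tested genes 10.2% were called lower and 16.2% higher, and 22.8% and 25.8% with the block. Among HoxD genes the fitted differences of the most 5′ members were furthest from 0: Hoxd13 was at 22.1 and 36.6 CPM in the ectoderm and 401 and 745 CPM in the mesoderm (log2 difference -4.28, SE 0.76, adjusted p = 0.0015), and Hoxd12 at 21.2 and 19.8 CPM in the ectoderm and 317 and 340.0 CPM in the mesoderm (log2 difference -4.001, SE 0.78, adjusted p = 0.0027). Hoxa13 was at 5.59 and 16.1 CPM in the ectoderm and 165 and 202 CPM in the mesoderm (log2 difference -4.07, SE 0.70, adjusted p = 0.0012). In the C cluster, Hoxc8 was at 86.6 and 71.6 CPM in the ectoderm and 0.621 and 0.409 CPM in the mesoderm (log2 difference 7.19, SE 0.56, adjusted p = 7.6e-06), and Hoxc13, known from hair and nail, was at 35.4 and 33.2 CPM in the ectoderm and 0.380 and 0.0682 CPM in the mesoderm (log2 difference 6.99, SE 0.52, adjusted p = 3.4e-06). Without 1 library, the number of HoxA genes called lower went from 8 to 5 (mesoderm replicate 2) or 4 (ectoderm replicate 1). The median HoxA gene stood in the ectoderm at 11.6% and 17.4% of its mesodermal level in the same batch. For the median HoxD gene this was 9.37% and 14.7%. It was 1.13% and 3.87% for endothelial genes, and 26.1% and 16.3% for the limb bud transcription factors, which went both ways. The part of RNA carried over between the layers in these levels was not tested.

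**Figure D3:**
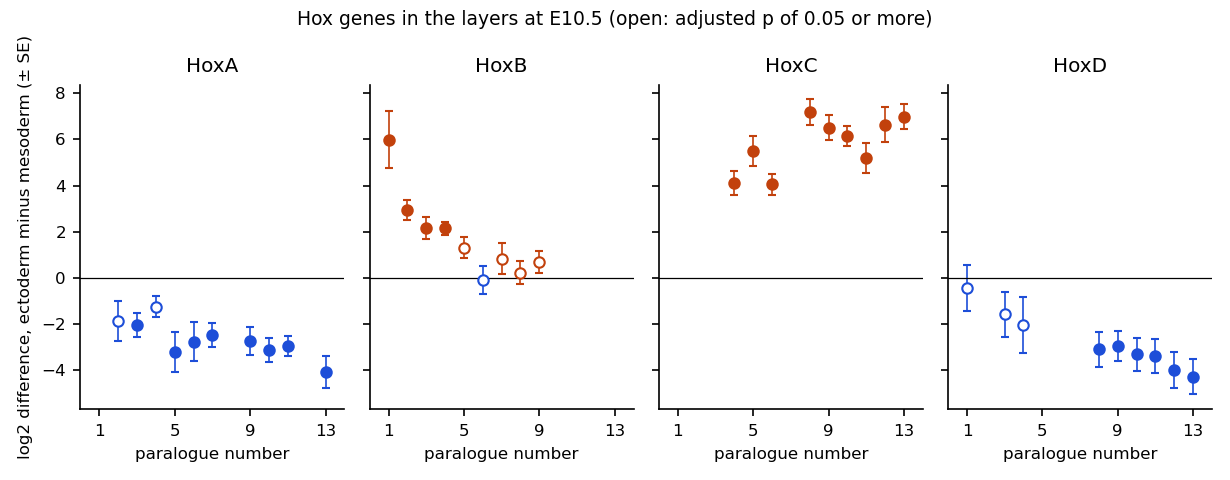
Log2 difference of ectoderm over mesoderm at E10.5 (y axis) for tested Hox genes by paralogue number (x axis), 1 panel per cluster. Points are the fitted differences, bars 1 standard error, and open points genes not called; 1 of the 11 tested HoxA genes is not plotted, the HoxC genes lie above 0, and the other 10 HoxA genes and the HoxD genes lie under 0.

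Genes of the basement membrane, the matrix sheet on which the ectoderm sits, were mostly higher in the ectoderm. Of 30 genes 19 were called higher, 4 lower and 7 not, beside 16.2% higher and 10.2% lower of all tested genes. Their median log2 difference was 2.17. Lama5, a chain of the main laminin of developing epithelia, was at 904 and 1009.7 CPM in the ectoderm and 16.1 and 13.6 CPM in the mesoderm (log2 difference 6.01, SE 0.33, adjusted p = 7.1e-07). Lamb3, a chain of the hemidesmosomal laminin, was at 32.5 and 26.3 CPM in the ectoderm and 0.104 and 0.273 CPM in the mesoderm (log2 difference 7.42, SE 0.74, adjusted p = 2.5e-05). Fras1 and Frem2, which hold epithelium and mesenchyme together and are named for Fraser syndrome, were at 548 and 540.0 CPM and 566 and 562 CPM in the ectoderm and at 14.2 and 9.69 CPM and 13.8 and 11.2 CPM in the mesoderm. Hspg2 (perlecan), a heparan sulfate proteoglycan, was at 961 and 869 CPM in the ectoderm and 203 and 168 CPM in the mesoderm (log2 difference 2.30, SE 0.28, adjusted p = 1.1e-04).

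The nidogens, which link laminin to collagen IV, were higher in the mesoderm. Nid1 was at 31.8 and 26.6 CPM in the ectoderm and 425 and 308 CPM in the mesoderm (log2 difference -3.65, SE 0.52, adjusted p = 3.2e-04), and Nid2 at 22.4 and 22.8 CPM in the ectoderm and 295 and 211 CPM in the mesoderm (log2 difference -3.49, SE 0.72, adjusted p = 0.0038). Lama4, a chain of vessel basement membranes, was at 6.74 and 7.14 CPM in the ectoderm and 99.8 and 64.5 CPM in the mesoderm (log2 difference -3.56, SE 0.43, adjusted p = 1.0e-04). The 2 collagen IV genes that form the common network were abundant in both layers. Col4a1 was at 1003 and 676 CPM in the ectoderm and 1372 and 783 CPM in the mesoderm (log2 difference -0.36, SE 0.38, adjusted p = 0.56), and Col4a2 at 1700.5 and 1022 CPM in the ectoderm and 726 and 399 CPM in the mesoderm (log2 difference 1.27, SE 0.46, adjusted p = 0.064). Neither was called, and with the block Col4a1 was called lower (adjusted p = 0.023) and Col4a2 higher (adjusted p = 7.2e-05). The 2 genes are known to share a promoter.

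Of 18 genes of stromal matrix 4 were called higher in the ectoderm, 6 lower and 8 not, beside 16.2% higher and 10.2% lower of all tested genes. Has2, which makes hyaluronan, was at 3.46 and 6.01 CPM in the ectoderm and 50.2 and 74.1 CPM in the mesoderm (log2 difference -3.70, SE 0.61, adjusted p = 9.5e-04). Versican (Vcan), which binds hyaluronan, was at 616 and 764 CPM in the ectoderm and 279 and 245 CPM in the mesoderm (log2 difference 1.40, SE 0.22, adjusted p = 5.6e-04), the opposite way. Fbn1 was at 131 and 109.7 CPM in the ectoderm and 23.9 and 14.6 CPM in the mesoderm (log2 difference 2.64, SE 0.46, adjusted p = 0.0014), and Fbn2, its relative, at 95.2 and 74.6 CPM in the ectoderm and 415 and 331 CPM in the mesoderm (log2 difference -2.14, SE 0.51, adjusted p = 0.0091), a call lost without a library (adjusted p = 0.078 without ectoderm replicate 2). Without ectoderm replicate 2, 1 gene of the list was called lower, and without mesoderm replicate 1, 3 were. With the block, 7 were called higher.

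Markers of vessels, blood and macrophages were on the mesodermal side. All 16 endothelial genes and all 11 tested erythroid genes were called lower in the ectoderm. Their summed levels were 18.2 and 27.8 CPM against 617 and 495 CPM for endothelium, and 83.6 and 223 CPM against 5268 and 4287 CPM for erythroid genes. Of 12 macrophage genes 8 were called lower, none higher (5 without mesoderm replicate 2 or ectoderm replicate 2, 4 without ectoderm replicate 1, 10 with the block), and their sums were 4.17 and 6.68 CPM against 39.0 and 54.3 CPM. Cd68 was near equal in the layers, at 1.69 and 3.87 CPM in the ectoderm and 1.69 and 4.02 CPM in the mesoderm. Sox10, the defining marker of neural crest glia, was at 0 in both ectoderm libraries and in mesoderm replicate 2, and at 0.0345 CPM in mesoderm replicate 1. Of 10 tested genes of the neural crest and nerve list, 3 were called higher, 1 lower and 6 not. Over all tested genes 16.2% were called higher and 10.2% lower. Erbb3, listed with neural crest but also found in epithelia, was at 105 and 112 CPM in the ectoderm and 1.38 and 1.16 CPM in the mesoderm (log2 difference 6.39, SE 0.50, adjusted p = 4.8e-06). The 1 called lower was Stmn2 (log2 difference -7.51). With the 4 E10.5 libraries alone, no gene of that list was called lower. Myf5, Myod1 and Myog, the markers of committed muscle, did not pass the filter on low counts. Of 5 tested genes of the muscle precursor list, 2 were called higher, 1 lower and 2 not. Met was at 86.9 and 74.4 CPM in the ectoderm and 2.14 and 3.62 CPM in the mesoderm (log2 difference 4.84, SE 0.48, adjusted p = 2.3e-05). Pax7 had no read in the mesoderm and was at 4.43 and 2.27 CPM in the ectoderm (at least 46.5-fold higher, adjusted p = 3.5e-04). The 1 called lower was Des (log2 difference -1.96), a call not made with the 4 E10.5 libraries alone (adjusted p = 0.11).

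All 9 tested genes of the periderm list, the flat outer sheet of embryonic skin, were called higher in the ectoderm, with a median log2 difference of 6.12. Krt7 was at 134 and 102 CPM in the ectoderm and 1.48 and 0.341 CPM in the mesoderm (log2 difference 6.87, SE 0.50, adjusted p = 2.9e-06), and Sfn, a 14-3-3 protein of epithelia, at 365 and 260.0 CPM in the ectoderm and 3.83 and 1.09 CPM in the mesoderm (log2 difference 6.90, SE 0.61, adjusted p = 9.6e-06). Krt17 was at 36.4 and 43.99 CPM in the ectoderm and 1.24 and 0.0682 CPM in the mesoderm (log2 difference 5.70, SE 0.83, adjusted p = 3.9e-04). Krt4 and Krt13 did not pass the filter.

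Of 22 genes of cell division, 7 were called lower in the ectoderm and none higher, with a median log2 difference of -0.57 beside 0.017 for all tested genes, and with the block 21 were called lower. Rrm2, a subunit of ribonucleotide reductase, was at 288 and 269 CPM in the ectoderm and 594 and 577 CPM in the mesoderm (log2 difference -1.07, SE 0.17, adjusted p = 5.7e-04). Mki67 was at 418 and 597 CPM in the ectoderm and 608 and 587 CPM in the mesoderm, with overlap and no call. The number called was 3 without mesoderm replicate 1, 4 without ectoderm replicate 1 and 2 without ectoderm replicate 2. Of 18 immediate-early and heat shock genes that dissociation can induce, 2 were called higher, 2 lower and 14 not. Over all tested genes, 16.2% were called higher and 10.2% lower. With the block 7 of the list were called higher and 5 lower, beside 25.8% and 22.8% of all tested genes. Jun was at 46.3 and 44.3 CPM in the ectoderm and 16.5 and 13.5 CPM in the mesoderm (log2 difference 1.59, SE 0.28, adjusted p = 0.0014), and Fos was at 1.95 and 2.14 CPM in the ectoderm and 0.828 and 0.750 CPM in the mesoderm (adjusted p = 0.54; with the block 0.0032). The part of dissociation in any difference was not tested.

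By size of the log2 difference, the 12 genes furthest to the ectodermal side among those with at least 20 CPM were Sox14, Fgf4, Clca1, St6galnac5, Gm47583, Fxyd3, Aox3, Fgf8, Vwde, Fam46a, Pkp1 and Adamts18. Sox14, a repressor of the SOX family, was at 23.7 and 17.8 CPM in the ectoderm and 0.104 and 0 CPM in the mesoderm, a ratio of 295 (counting interval 101 to 1436). Vwde was at 122 and 182 CPM in the ectoderm and 1.07 and 0.341 CPM in the mesoderm (log2 difference 7.61, SE 0.50, adjusted p = 1.7e-06). Pkp1, a desmosome plakophilin, was at 43.5 and 56.9 CPM in the ectoderm and 0.380 and 0.0682 CPM in the mesoderm (log2 difference 7.54, SE 0.72, adjusted p = 1.7e-05). Adamts18, a matrix protease, was at 335 and 402 CPM in the ectoderm and 2.83 and 1.09 CPM in the mesoderm (log2 difference 7.48, SE 0.56, adjusted p = 3.4e-06), and Fam46a at 141 and 147 CPM in the ectoderm and 1.001 and 0.409 CPM in the mesoderm (log2 difference 7.56, SE 0.82, adjusted p = 4.4e-05). On the other side stood Kdr, Cd93, Tie1, Robo4, Flt4, Sparcl1, Cdh5, Plvap, Eng, Pde2a, Col15a1 and Hba-a1, most of them known from endothelium and the last from red cells. Kdr, the main VEGF receptor, was at 0.0887 and 1.60 CPM in the ectoderm and 85.3 and 70.3 CPM in the mesoderm (log2 difference -6.40, SE 0.75, adjusted p = 8.1e-05).

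By size of the CPM difference, the genes furthest to the ectodermal side were Igfbp5, H19, Col18a1, Ctnnb1, Col2a1, Slc2a3, Fgf8 and Ptprf. Igfbp5, an IGF binding protein, was at 6027 and 5316 CPM in the ectoderm and 65.8 and 30.7 CPM in the mesoderm (log2 difference 6.87, SE 0.52, adjusted p = 3.5e-06). Ctnnb1, which codes for beta-catenin, was at 3896 and 3151 CPM in the ectoderm and 1620.5 and 1471 CPM in the mesoderm (log2 difference 1.19, SE 0.17, adjusted p = 3.5e-04). Col2a1, the collagen of cartilage, was at 1933 and 1181 CPM in the ectoderm and 40.9 and 20.3 CPM in the mesoderm (log2 difference 5.66, SE 0.61, adjusted p = 4.2e-05), that is, higher in the ectoderm of this stage than in the distal mesoderm. H19, an imprinted RNA, was at 6418 and 5013 CPM in the ectoderm and 1966 and 1943 CPM in the mesoderm (log2 difference 1.55, SE 0.28, adjusted p = 0.0016). Those furthest to the mesodermal side were Mest, Hbb-y, Hba-x, Nnat, Asb4, Capn6, Hbb-bh1 and Cdh11. Mest, another imprinted gene, was at 929.7 and 787 CPM in the ectoderm and 2839 and 2403 CPM in the mesoderm (log2 difference -1.61, SE 0.17, adjusted p = 4.5e-05), and Cdh11, a cadherin of mesenchyme, was at 48.7 and 72.4 CPM in the ectoderm and 723 and 686 CPM in the mesoderm (log2 difference -3.54, SE 0.73, adjusted p = 0.0038). Nnat was at 379.9 and 259.9 CPM in the ectoderm and 1579 and 826 CPM in the mesoderm (log2 difference -1.91, SE 0.42, adjusted p = 0.0052), a call lost in leave-out fits (adjusted p = 0.058 without ectoderm replicate 2, and 0.057 without mesoderm replicate 1).

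Whether the E10.5 difference departed from that of the other stages was tested by interaction contrasts in the same fit. Against the mean of E9.5, E11.5 and E12.5, 69 genes (0.445% of those tested) had a different layer difference at E10.5, 57 (0.368%) shifted toward the ectoderm and 12 (0.0774%) toward the mesoderm. These calls were few, and none held in all fits that left 1 E10.5 library in its group. Lost power and reliance on a library cannot be told apart in such fits. Over the 16 fits that left out 1 library, the shift of Fgfr2 ranged from 2.62 to 2.96 and that of Trhde from 5.76 to 8.51. With the embryo batch as a block there were 660 (4.26%), all 69 among them. Of the listed genes, Fgfr2, Ror1, Cdon, Spry2 and Hoxb5 were among the 69.

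Fgfr2 stood out for its mesodermal level. In the mesoderm it was at 60.1 and 87.01 CPM at E9.5, 7.35 and 7.71 CPM at E10.5, 41.9 and 20.8 CPM at E11.5 and 83.4 and 82.9 CPM at E12.5, so both E10.5 libraries were below all others. The ectoderm was at 263 and 302 CPM at E9.5 and 197 and 319.6 CPM at E11.5, beside 275 and 314 CPM at E10.5. The layer difference at E10.5 exceeded that of the other stages by 2.83 (SE 0.37, adjusted p = 0.0086). Sulf1, a sulfatase that edits heparan sulfate and so FGF and WNT binding, was also lowest in the mesoderm at E10.5. Its mesodermal level was 13.2 and 13.7 CPM at E9.5, 5.18 and 8.73 CPM at E10.5, 126 and 65.99 CPM at E11.5 and 79.6 and 142 CPM at E12.5. Its ectodermal level changed too, at 100.01 and 97.1 CPM at E9.5, 179 and 144 CPM at E10.5, 73.9 and 87.3 CPM at E11.5 and 172 and 118 CPM at E12.5. Its shift was 3.55 (SE 0.43, adjusted p = 0.0086). Against E9.5 alone it was 1.68 and not called (adjusted p = 0.15).

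Spry2 moved the other way. In the mesoderm it was at 21.01 and 27.98 CPM at E9.5, 65.2 and 75.2 CPM at E10.5, 45.98 and 51.9 CPM at E11.5 and 22.3 and 20.5 CPM at E12.5, and the shift of its layer difference at E10.5 was -1.29 (SE 0.19, adjusted p = 0.016). Epha1, an ephrin receptor, was in the mesoderm at 4.44 and 5.72 CPM at E9.5, 37.6 and 28.9 CPM at E10.5 and 14.5 and 13.7 CPM at E11.5, with a shift of -1.81 (SE 0.21, adjusted p = 0.0086). Trhde, a peptidase, was in the ectoderm at 0 and 0.241 CPM at E9.5, 17.3 and 22.1 CPM at E10.5, 1.96 and 7.41 CPM at E11.5 and 1.65 and 0.791 CPM at E12.5, with a shift of 6.84 (SE 1.20, adjusted p = 0.039). Its 2 ectoderm libraries of E10.5 were above all the others. Hoxb5 carried a shift of 4.02 (SE 0.65, adjusted p = 0.033), although it was below 2 CPM in both layers at E10.5. At E9.5 its mesoderm was at 39.7 and 41.6 CPM and its ectoderm at 16.1 and 10.1 CPM. At E11.5 its mesoderm was at 0.443 and 0.466 CPM and its ectoderm at 0.0852 and 0.265 CPM. At E12.5 the mesoderm was at 0.261 and 0.183 CPM and the ectoderm at 0 and 0 CPM, so the shift also rests on values near the floor. All of these calls were lost without at least 1 E10.5 library, in fits that leave 1 library in its group.

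**Figure D4:**
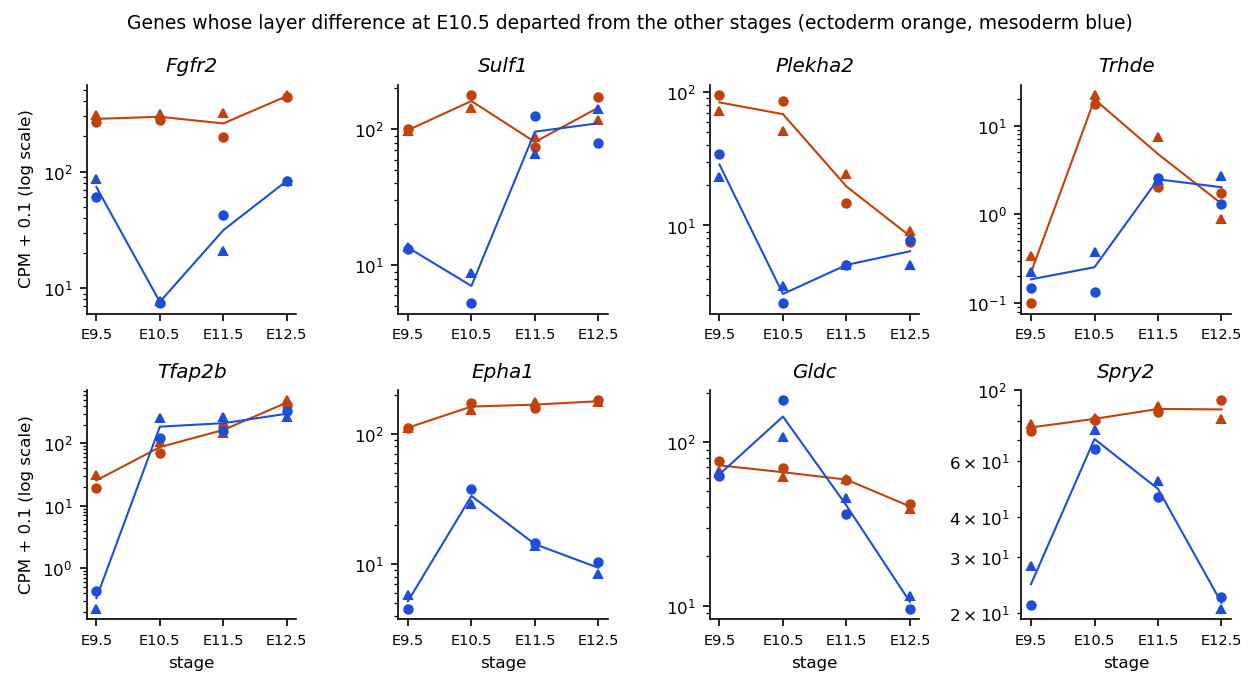
Level of 8 genes in the ectoderm (orange) and mesoderm (blue) at the 4 stages from E9.5 to E12.5 (CPM + 0.1, log axis); lines run through the means, circles are replicate 1 and triangles replicate 2. The mesodermal line of Fgfr2 and Sulf1 dips at E10.5, that of Spry2, Epha1 and Gldc peaks there, and the ectodermal line of Trhde peaks there.

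Against E9.5 alone, 352 genes (2.27%) had another layer difference at E10.5, 226 (1.46%) toward the ectoderm and 126 (0.813%) toward the mesoderm. With the block there were 1280 (8.26%), and leaving out any 1 library of E9.5 or E10.5 gave between 97 and 170. Meis2 was in the mesoderm at 239 and 279 CPM at E9.5 and 4.35 and 6.14 CPM at E10.5, with a shift of 4.49 (SE 0.27, adjusted p = 5.1e-05). Rspo2 was in the ectoderm at 81.2 and 40.1 CPM at E9.5 and 236 and 244 CPM at E10.5, and in the mesoderm at 39.4 and 39.5 CPM and 3.17 and 2.25 CPM, with a shift of 5.82 (SE 0.51, adjusted p = 3.9e-04). Dlx5 moved toward the mesoderm: its mesodermal level was 0.382 and 0.369 CPM at E9.5 and 12.8 and 15.6 CPM at E10.5, and its shift was -4.79 (SE 0.35, adjusted p = 1.8e-04). Cyp26b1 was in the mesoderm at 29.7 and 23.3 CPM at E9.5 and 958 and 830.1 CPM at E10.5, with a shift of -5.14 (SE 0.40, adjusted p = 2.5e-04). These 4 shifts were called in all 16 fits that left out 1 library.

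Against E11.5 only 4 genes (0.0258%) were called: Rin2 and Sulf1 toward the ectoderm (0.0129%), and Ankrd6 and Gpr4 toward the mesoderm (0.0129%), all named because the count is small. At an unadjusted p under 0.05 there were 786, and with the block 159 (1.03%) were called. The shift of Sulf1 was 4.81 (SE 0.53, adjusted p = 0.024). Depending on the library left out, between 0 and 27 genes were called.

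Exon use was compared across the layers from the read counts of exon bins, the pieces into which overlapping exons of a gene are cut. Of 12203 genes 47 (0.385%) used their bins differently, through 89 of 156025 bins (0.057%), 56 with a larger and 33 with a smaller share in the ectoderm. With the block 124 genes (1.02%) were called, 46 of the 47 among them. Without mesoderm replicate 1 there were 20 genes, and without ectoderm replicate 1 or 2 there were 31 each. The smallest Simes p belonged to Dnmbp, a scaffold of cell junctions: bin 19 held 15.3% and 12.9% of the gene's exon reads in the ectoderm and 0.246% and 0.134% in the mesoderm (log2 4.26, adjusted p = 9.5e-28). Bin 20 of the same gene went the other way, at 2.63% and 2.77% and 16.3% and 17.7%. The next genes were Epb41l5, Sptb and Epb41, which code for proteins of the membrane skeleton, then Amotl1, Enah, Fgfr1, Lef1, Mprip and Agap3. Of the 10, Enah, Fgfr1 and Lef1 each differed in 1 short bin that is wholly coding.

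These 5 short coding exons are printed as examples of inclusion that differs by layer, in lower case, from GENCODE M21 transcripts, 5′ to 3′ on the coding strand. Enah (Mena), Lef1 and Ctnnd1 were on the list or among the 10; Ptprf and Numa1 were chosen after their values were seen.
Enah bin 8: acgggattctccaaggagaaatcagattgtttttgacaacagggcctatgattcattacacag
Lef1 bin 7: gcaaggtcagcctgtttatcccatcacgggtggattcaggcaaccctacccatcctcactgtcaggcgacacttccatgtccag
Ctnnd1 bin 16: atgagtggttctccagag
Ptprf bin 24: tggagaccagaggagtccgaggactat
Numa1 bin 24: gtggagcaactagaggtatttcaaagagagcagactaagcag
The Enah exon (mm10 chr1:181911597-181911659, 63 bases) belongs to an actin regulator and is known as the epithelial exon of Mena. It held 2.06% and 2.17% of the gene's exon reads in the ectoderm and 0.0259% and 0.0507% in the mesoderm (log2 4.07, adjusted p = 1.2e-11). The Lef1 exon (chr3:131191023-131191106, 84 bases), in a transcription factor of WNT signalling, held 2.96% and 2.45% and 0.163% and 0% (log2 3.35, adjusted p = 7.5e-10). Lef1 as a gene was not called, so the layers differed in the exon and not by test in the level. The Ptprf exon (chr4:118227819-118227845, 27 bases) held 0.494% and 0.363% and 0.0298% and 0.0342% (log2 2.58, adjusted p = 3.8e-08), and the Numa1 exon (chr7:102002295-102002336, 42 bases) 1.42% and 1.53% and 0.217% and 0.196% (log2 1.93, adjusted p = 4.8e-08). The Ctnnd1 exon (chr2:84612532-84612549, 18 bases), in p120-catenin, went the other way, with 0.424% and 0.298% in the ectoderm and 1.59% and 1.73% in the mesoderm (log2 -1.52, adjusted p = 0.001). That call was lost without ectoderm replicate 2 (adjusted p = 0.55). None of the 5 exons overlapped in share between the layers. All 5 were printed from among the called bins, so this adds no support beyond the calls.

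Bins of the anchoring genes also differed. In Dst, which codes for dystonin and its epithelial form, bin 46 held 12.01% and 9.72% of the exon reads in the ectoderm and 0.910% and 0.105% in the mesoderm (log2 2.97, adjusted p = 1.5e-07, chosen after its values were seen). In Itga6, the laminin receptor, bin 29 held 2.89% and 2.86% and 0.0922% and 0.296% (log2 2.82, adjusted p = 6.0e-07), a call lost without mesoderm replicate 1 (adjusted p = 0.22). Amotl1, a partner of YAP at junctions, used bin 17 at 0.975% and 0.739% and 0.0187% and 0% (log2 4.08, adjusted p = 2.0e-11). Fgfr3, Cd44 and Trp63, listed for known splice forms, were not called (Simes adjusted p = 1 for each).

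**Figure D5:**
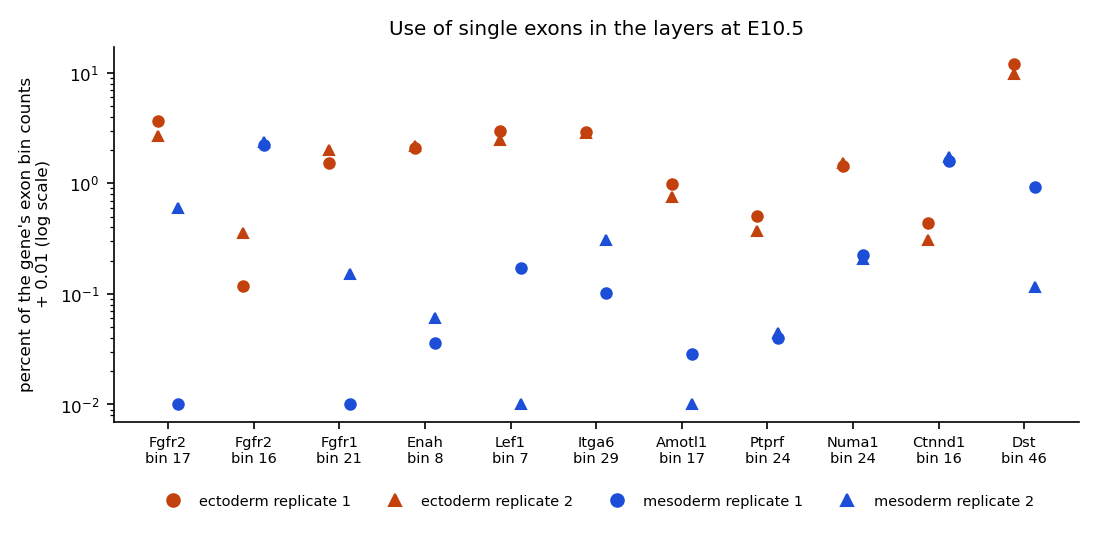
Share of a gene's exon reads in 11 exon bins (percent + 0.01, log axis) in each E10.5 library; orange is ectoderm and blue mesoderm, circles are replicate 1 and triangles replicate 2. The Fgfr2 IIIb (bin 17) and IIIc (bin 16) exons lie in opposite order, and the Enah, Fgfr1 and Lef1 exons lie higher in the ectoderm.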

How the data were processed

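Polyadenylated RNA of ectoderm and mesoderm was sequenced from stranded TruSeq libraries, 2 biological replicates per layer at each of 4 stages, per the labels' protocols. The deposited gene and exon tables hold raw read counts made by the authors, and a further deposited table holds FPKM values from the same libraries. The submitters' processing notes name cutadapt 1.16, STAR 2.6.0c, Cufflinks 2.2.1, bedtools 2.27.1 and the build mm10. The counting tool and its strand setting are not given in the sources used here, so reads of overlapping or antisense genes may be shared.

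Genes were filtered (filterByExpr by group), scaled by TMM and fitted with edgeR 4.0.16 (R 4.3.3) as 8 groups over 16 libraries. The quasi-likelihood F test gave the E10.5 contrast and its interactions with other stages, and the SE is the absolute log2 difference divided by the square root of F. Exon bins were tested with edgeR's exon use test and Simes p-values; bin coordinates were rebuilt from GENCODE M21 for 51401 of 53357 genes (96.33%). The alternatives were RLE scaling, no filter, DESeq2 1.42.0, limma 3.58.1 on log2(FPKM + 0.1), the 4 E10.5 libraries alone, the embryo batch as a block and leaving out each library. Scripts were tested on simulated data.

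The labels say that ectoderm and mesoderm of a replicate come from the same batch of embryos. At E10.5 the difference between replicates 2 and 1 in the ectoderm correlated with that in the mesoderm across genes (Pearson r 0.67). The RNA kit goes with the replicate number too, so batch and kit cannot be told apart in this value. The fit without the block was the main one, so its p-values and calls do not pair the layers by batch. Blocked values are given where they change the call of a gene described or move a count by over 1.5 times. The p-values rest on the spread between the 2 libraries of each group, estimated jointly over the 8 groups and not from the E10.5 groups alone. Counting intervals (95%) and the floor of 3 reads cover counting error only.

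Named genes are listed members with a signalling role and up to 4 examples of other lists, the 12 per direction with the largest log2 difference at 20 CPM or more, the 8 per direction with the largest CPM difference, the 10 per direction with the largest stage shift at 10 CPM or more, and the 10 genes with the smallest exon use p. The members and lists were chosen with earlier results of these data known. Some listed genes and exon sequences are not reported here; counts over lists include those genes. As a description, the motif AACCGGTT, which is its own reverse complement and the core bound by GRHL factors, was searched in RefSeq promoter windows: 48 of 32851 windows (0.146%) held it, and none of those matched to 13 surface epithelium, 6 periderm and 20 basement membrane genes did.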

Additional observations from a re-analysis of the deposited data

Results flagged for a closer look

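The 39 results below have a layer difference at E10.5 that departs from that of other stages, tested as an interaction in edgeR's quasi-likelihood fit with Benjamini-Hochberg adjustment over 15501 genes. Each value is the log2 layer difference at E10.5 minus that of the stages named, with its SE and adjusted p, so a positive value is a shift toward the ectoderm. All 39 were called with embryo batch as the block and by DESeq2 too.

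Against the mean of the other 3 stages, the shifts toward the ectoderm were 6.84 (SE 1.20, adjusted p = 0.039) for Trhde, 6.07 (SE 0.82, adjusted p = 0.011) for Ccbe1, 4.02 (SE 0.65, adjusted p = 0.033) for Hoxb5, 3.96 (SE 0.73, adjusted p = 0.046) for Pgbd5, 3.96 (SE 0.62, adjusted p = 0.022) for Adamts2, 3.67 (SE 0.46, adjusted p = 0.0086) for Gfra1, 3.65 (SE 0.64, adjusted p = 0.039) for Dchs2, 3.55 (SE 0.43, adjusted p = 0.0086) for Sulf1, 3.24 (SE 0.42, adjusted p = 0.0086) for Plekha2 and 3.21 (SE 0.40, adjusted p = 0.0086) for Fam19a2. Members of the signalling lists shifted the same way were 2.83 (SE 0.37, adjusted p = 0.0086) for Fgfr2, 2.72 (SE 0.50, adjusted p = 0.045) for Ror1 and 1.29 (SE 0.23, adjusted p = 0.044) for Cdon. The shifts toward the mesoderm were -3.40 (SE 0.49, adjusted p = 0.015) for Tfap2b, -2.86 (SE 0.30, adjusted p = 0.0086) for Peli3, -2.57 (SE 0.34, adjusted p = 0.0086) for Mtus1, -2.02 (SE 0.26, adjusted p = 0.0086) for Gldc, -1.88 (SE 0.32, adjusted p = 0.033) for Slc27a6, -1.81 (SE 0.21, adjusted p = 0.0086) for Epha1, -1.62 (SE 0.30, adjusted p = 0.045) for Epha2, -1.38 (SE 0.26, adjusted p = 0.047) for Arhgap22, -1.36 (SE 0.17, adjusted p = 0.0086) for Ankrd6 and -1.29 (SE 0.19, adjusted p = 0.016) for Spry2. Each of these 23 calls was lost without at least 1 E10.5 library, and the fits without mesoderm replicate 1, ectoderm replicate 1 or ectoderm replicate 2 made no call in this comparison at all. Over the fits that left out 1 library, the shift of Trhde ranged from 5.76 to 8.51 and that of Ccbe1 from 5.47 to 9.39. Without mesoderm replicate 1 of E10.5 the shift of Ccbe1 was 9.39 (adjusted p = 0.1) and that of Trhde 5.76 (adjusted p = 0.25), so their order turned and neither was called.

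Gfra1, the receptor of GDNF, was in the mesoderm at 9.84 and 10.4 CPM at E9.5, 0.759 and 0.614 CPM at E10.5 and 0.754 and 0.599 CPM at E11.5. Plekha2 was in the mesoderm at 34.2 and 22.8 CPM at E9.5, 2.52 and 3.41 CPM at E10.5 and 4.92 and 4.99 CPM at E11.5. Tfap2b was in the mesoderm at 0.334 and 0.123 CPM at E9.5, 120.4 and 251 CPM at E10.5 and 156 and 266 CPM at E11.5. Its ectoderm was at 19.3 and 31.4 CPM at E9.5, 69.5 and 105 CPM at E10.5 and 184 and 145 CPM at E11.5. Gldc, the glycine cleavage enzyme, was in the mesoderm at 62.1 and 64.6 CPM at E9.5, 179 and 107 CPM at E10.5 and 36.05 and 45.6 CPM at E11.5.

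Against E9.5 alone, the listed genes shifted toward the ectoderm were 3.79 (SE 0.55, adjusted p = 0.0061) for Meis1, 4.49 (SE 0.27, adjusted p = 5.1e-05) for Meis2, 5.82 (SE 0.51, adjusted p = 3.9e-04) for Rspo2, 4.63 (SE 0.68, adjusted p = 0.0063) for Hoxc4, 4.50 (SE 0.79, adjusted p = 0.014) for Hoxc5, 3.49 (SE 0.68, adjusted p = 0.024) for Cyp26a1 and 5.22 (SE 0.66, adjusted p = 0.003) for Irx3. Those shifted toward the mesoderm were -5.14 (SE 0.40, adjusted p = 2.5e-04) for Cyp26b1, -4.79 (SE 0.35, adjusted p = 1.8e-04) for Dlx5, -3.55 (SE 0.48, adjusted p = 0.0041) for Tfap2a, -1.78 (SE 0.25, adjusted p = 0.0054) for Wnt5a and -2.35 (SE 0.38, adjusted p = 0.01) for Cdh3. Of these 12, Hoxc5 lost its call in 4 of the 16 fits that left out 1 library, Cyp26a1 in 8 and Cdh3 in 1 (without ectoderm replicate 2 of E10.5, adjusted p = 0.054); the other 9 were called in all 16.

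Against E11.5 alone, the 4 called genes were 4.81 (SE 0.53, adjusted p = 0.024) for Sulf1, 2.62 (SE 0.36, adjusted p = 0.048) for Rin2, -1.63 (SE 0.21, adjusted p = 0.04) for Ankrd6 and -2.87 (SE 0.36, adjusted p = 0.04) for Gpr4. Sulf1 lost this call in 11 of the 16 fits and the other 3 genes in 15.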

How the results depend on the processing

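Among the results described, no gene, stage shift or exon bin called in the main fit or in an alternative had the opposite direction in the other. Direction was not compared where neither fit made a call. With the embryo batch as a replicate block, which pairs the layers of 1 batch, the number of genes called rose to 7531 for the layer difference (8129 with the 4 E10.5 libraries alone and the replicate block), 660 against the other stages, 1280 against E9.5, 159 against E11.5 and 124 for exon use. DESeq2 called 341 genes against the other stages, 675 against E9.5 and 96 against E11.5. With no filter on low counts these were 432, 750 and 203. With at least 10 reads in every E10.5 library, 11 genes were called for exon use. The cause of these changes was not tested.

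Leaving out 1 library gave between 2692 and 4187 calls for the layer difference, 0 and 116 against the other stages, 97 and 363 against E9.5, 0 and 27 against E11.5, and 20 and 43 genes for exon use. Where this left 1 library in a group, that library was assumed to vary like the other groups. At their lowest, the stage comparisons kept a smaller part of their calls than the layer difference did. Lost power and reliance on a library cannot be told apart there.

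For single genes in the layer difference, 10237 of 10766 recomputed values stayed on the same side of the threshold, 266 lost and 263 gained the call. For the counts over gene lists, 982 of 1058 stayed within 1.5 times. Of 780 recomputed stage shifts 234 lost the call, as did 15 of 143 exon bin values. At this depth 15501 genes passed the filter on low counts, beside 28342 with at least 1 read in the 16 libraries of the series. In all, 5568 genes had an unadjusted p under 0.05 for the layer difference and 1249 against the other stages.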
